A study of Mus musculus with 4 samples.

Results

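The epithelial-mesenchymal switch is described here through 10 genes in Chd2 mutant and wild-type mouse embryonic stem cells. They are the transcription factor genes Zeb1, Zeb2, Snai1, Snai2 and Twist1, the mesenchymal hallmark genes Vim and Cdh2, and the epithelial hallmark genes Cdh1, Epcam and Esrp1. They were picked by gene name from the 23309 names of the deposited table, and all 10 were listed. The set was put together with results of this comparison known, so the values of its members are given as a description. The authors' q-values are quoted for them as deposited and carry no weight as a test of the set.

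RNA was sequenced from embryonic stem cells of the 129/Ola strain with the genotype Chd2 mut/mut, titled Chd2KO, and from wild-type cells of the same strain, with 2 libraries each, marked lot 1 and lot 2. Chd2 encodes an ATP-dependent chromatin remodeler. Both genotypes were at passages 10 to 20 and grew on gelatin in 10% serum with 1000 U/ml of leukemia inhibitory factor (LIF), which keeps these cells undifferentiated. The labels do not give the nature of the mutant allele, how many clones it was studied in, how the lines are related, or whether the lots were separate cultures.

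Epithelial cells hold together through E-cadherin junctions, and in the epithelial-mesenchymal transition they lose these junctions, gain vimentin and become motile. ZEB, SNAI and TWIST factors drive the transition, and ZEB and SNAI proteins repress epithelial genes by binding E-box motifs in their promoters. Mouse embryonic stem cells grow as compact colonies with E-cadherin junctions, and the transition takes place when epiblast cells pass through the primitive streak.

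Levels are in FPKM, a fragment count corrected for the length of the transcript and the size of the library. The table holds 1 FPKM value per gene and genotype over its libraries, so no value below has a replicate error, and the depth of the libraries is unknown. A call is the authors' own, and each called gene has a q-value under 0.05. The summed FPKM of all genes was 809413 in the mutant and 806390 in wild type. Chd2 itself was at 5.69 FPKM in the mutant and 10.2 FPKM in wild type, so its transcript was still present, with a log2 fold change of -0.84 and a q-value of 0.0103 in the authors' deposited table. The pluripotency gene Pou5f1 was at 1071 FPKM in the mutant and 1032 FPKM in wild type. All 10 pluripotency markers averaged 1 FPKM or more, from Tbx3, at 8.86 FPKM in the mutant and 8.97 FPKM in wild type, to Dppa5a, at 4380 FPKM in the mutant and 3844 FPKM in wild type. In log2(FPKM + 1), mutant minus wild type, 8 of them lay above 0 and 2 below, with a median of 0.15. Nanog was at 150.1 FPKM in the mutant and 114.4 FPKM in wild type. Sox2 was at 222.0 FPKM in the mutant and 177.9 FPKM in wild type. None of the 10 was called. Of the markers of the primitive streak and mesoderm, 10 of 12 were under 1 FPKM in both genotypes, as were 9 of 11 markers of primitive endoderm and 5 of 8 of neural progenitors. The other neural markers were Tubb3, at 49.1 FPKM in the mutant and 50.7 FPKM in wild type, Nes and Pax6. Nes was at 3.58 FPKM in the mutant and 4.12 FPKM in wild type. Pax6 was at 2.42 FPKM in the mutant and 1.68 FPKM in wild type. No marker of these lists was called.

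Of the 10 genes, Vim and Zeb1 were called, both lower in the mutant, and none was called higher. Among the 11276 genes with a q-value under 1, 0.718% were called in either direction and 0.461% were called lower. Among the 10766 genes averaging 1 FPKM or more the shares were 0.697% and 0.437%. The members were chosen with this contrast known, so nothing is read from their count against that background. A q-value under 1 was given to 8 members, and the other 2, Zeb2 and Snai2, were nearly silent. On the log2(FPKM + 1) scale 8 of the 10 differences, mutant minus wild type, lay above 0, with a median of 0.07 and a mean of -0.01, which differ in sign. The median over the 10766 genes was -0.00117.

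**Figure D1:**
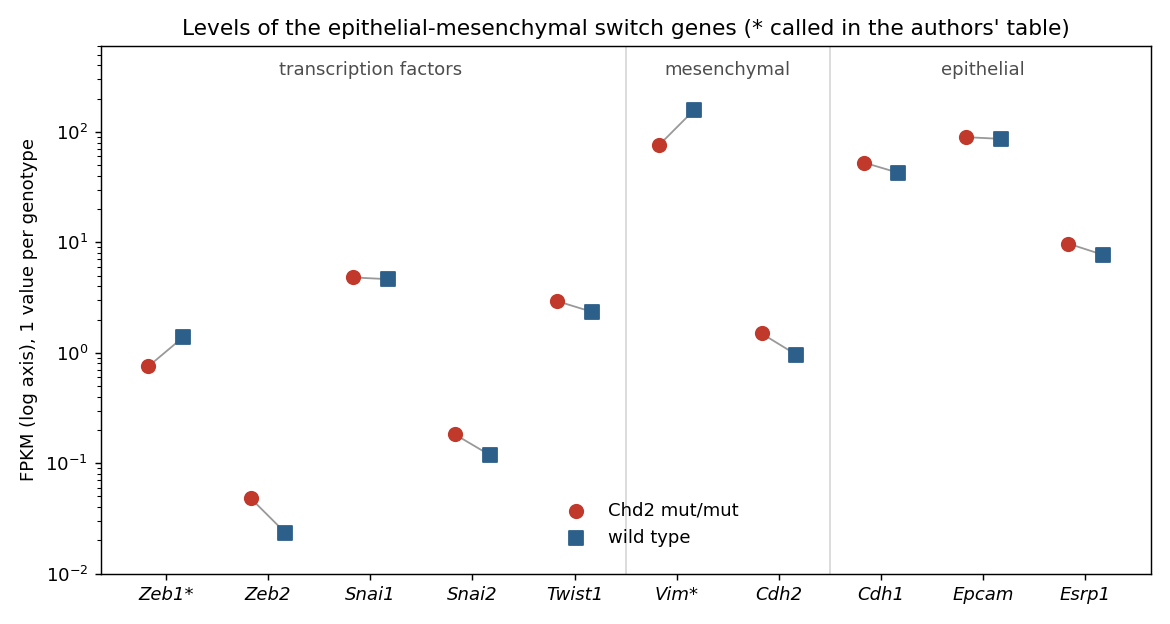
FPKM of the 10 switch genes on a log axis, with Chd2 mut/mut as circles left and wild type as squares right, 1 value per genotype and no error bars. Vim stood at 76.3 FPKM in the mutant and 157.7 FPKM in wild type, and Zeb1 at 0.754 FPKM in the mutant and 1.38 FPKM in wild type. The points of the other 8 genes were level or higher in the mutant, without a call. Among them Zeb2 and Snai2 were too low to give a direction.

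Promoters of the members and of related called genes were searched for the E-box that ZEB and SNAI factors bind, CACCTG on the sense strand or its reverse complement CAGGTG. The windows are the RefSeq promoters of build GRCm38.p6, from 250 bases before to 50 bases after an annotated gene start. The authors' values are on another build, mm9, so genes were matched by symbol. Of 32851 such windows, 20.2% hold at least 1 match, 2.88% at least 2 and 0.0548%, or 18 windows, at least 4. Windows were found for 5 of the 10 members, namely Zeb2, Snai1, Twist1, Vim and Epcam. The motif was chosen with the calls known, and a match is a stretch of letters, not a bound site.

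The windows of Vim, which was lower in the mutant, and of Epcam, which was not called, are shown because they are the most abundant members, each 5′ to 3′ on the sense strand with E-box matches in capitals. The Vim window (chr2:13574061-13574360, plus strand) holds no match. The Epcam window (chr17:87635729-87636028, plus strand) holds 2, which begin 187 and 19 bases before the start.
Vim: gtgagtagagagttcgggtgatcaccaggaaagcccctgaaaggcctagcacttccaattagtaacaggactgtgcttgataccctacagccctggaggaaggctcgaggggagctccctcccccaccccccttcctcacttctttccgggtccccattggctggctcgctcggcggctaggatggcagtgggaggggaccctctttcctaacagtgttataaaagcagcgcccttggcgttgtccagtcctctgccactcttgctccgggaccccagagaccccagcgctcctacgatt
Epcam: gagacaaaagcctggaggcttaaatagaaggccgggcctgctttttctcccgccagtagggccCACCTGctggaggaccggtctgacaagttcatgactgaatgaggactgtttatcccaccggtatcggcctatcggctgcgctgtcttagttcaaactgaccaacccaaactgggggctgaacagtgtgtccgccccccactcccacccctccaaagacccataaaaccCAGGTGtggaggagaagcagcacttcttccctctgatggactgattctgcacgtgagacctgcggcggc
Of the other members, Snai1 has 1 match 126 bases before its start, and Twist1 and the 4 windows of Zeb2 have none.

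Among the transcription factors, Zeb1 had 0.754 FPKM in the mutant and 1.38 FPKM in wild type. Zeb1 encodes a zinc finger and homeodomain repressor of Cdh1 and other epithelial genes. Its level in the mutant was 54.5% of that in wild type, and the authors' deposited table gives -0.88 as its log2 fold change and 0.0179 as its q-value. Of the 47 genes called lower and averaging 1 FPKM or more, it had the lowest mean, at 1.07 FPKM. The gene model Gm10125 overlaps Zeb1 on the other strand in GENCODE annotation and was listed at 0.0286 FPKM in the mutant and at 0 in wild type. The library kit is not stated to keep strand, so reads of the overlap cannot be assigned to either gene, and their part in the Zeb1 values was not tested.

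Zeb2, the closest relative of Zeb1, was at 0.0482 FPKM in the mutant and 0.0235 FPKM in wild type. These values are too low to give a direction, and the authors' deposited table assigns it a q-value of 1. Nearly all ZEB transcript was therefore Zeb1, with 15.6 times the FPKM of Zeb2 in the mutant and 58.98 times in wild type. As Zeb2 was nearly silent in both genotypes, no difference between these ratios is read. Other genes annotated over Zeb2 on the opposite strand, among them Zeb2os, were not analysed here.

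Snai1 encodes the zinc finger repressor SNAIL, which acts early in the transition. It was the most abundant of the 5 factors, at 4.81 FPKM in the mutant and 4.64 FPKM in wild type, with a q-value of 0.998 in the authors' deposited table. Its relative Snai2 was at 0.182 FPKM in the mutant and 0.119 FPKM in wild type, again too low for a direction. Twist1, a basic helix-loop-helix factor of mesoderm and neural crest, was at 2.93 FPKM in the mutant and 2.35 FPKM in wild type, and was not called, with a q-value of 0.963 in the authors' deposited table. Of the 5 factors Zeb1 was the one called. The FPKM of Snai1 was 6.38 times that of Zeb1 in the mutant and 3.35 times in wild type. Summed over the 5, the level was 8.73 FPKM in the mutant and 8.52 FPKM in wild type.

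Of the mesenchymal hallmark genes, Vim had 76.3 FPKM in the mutant and 157.7 FPKM in wild type. Vim encodes vimentin, the intermediate filament protein of mesenchymal cells, which is also made in cultured stem cells. It was 2.07-fold lower in the mutant, with a log2 fold change of -1.05 and a q-value of 0.0103 in the authors' deposited table, a q-value shared by 55 genes. By mean level it was the third most abundant of the 47 lower calls, and by the size of its fold number 21 of all 52. Of the 10766 genes, 0.855% had a larger absolute difference of log2(FPKM + 1). As these are bulk libraries, fewer cells with vimentin and less Vim RNA per cell cannot be told apart.

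Markers of fibroblasts, another source of vimentin, were mostly at or near 0. Of 12 such markers 9 were under 1 FPKM in both genotypes, and Col3a1, Lum, Postn and Fap were listed at 0 in both. Their summed level was 18.1 FPKM in the mutant and 21.3 FPKM in wild type. Most of this was Thy1, at 11.5 FPKM in the mutant and 14.2 FPKM in wild type, and none of the 12 was called.

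Cdh2 encodes N-cadherin, which replaces E-cadherin in many mesenchymal cells. It was at 1.497 FPKM in the mutant and 0.961 FPKM in wild type. Its log2 fold change of 0.64 was not called, with a q-value of 0.309 in the authors' deposited table. The 2 mesenchymal hallmark genes thus lay on opposite sides of 0.

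The 3 epithelial hallmark genes were all above 0 and none was called. Cdh1, which encodes E-cadherin, was at 52.8 FPKM in the mutant and 42.6 FPKM in wild type, with a q-value of 0.532 in the authors' deposited table. Esrp1, whose protein directs epithelial patterns of splicing, was at 9.75 FPKM in the mutant and 7.72 FPKM in wild type, with a q-value of 0.564 in the authors' deposited table. Cdh1 and Esrp1 were thus 1.24-fold and 1.26-fold higher in the mutant, without a call. The gene model Gm26663, annotated over Esrp1 on the other strand, was not analysed here. Epcam, a membrane adhesion protein of epithelia and pluripotent cells, was at 89.6 FPKM in the mutant and 86.5 FPKM in wild type, with a q-value of 0.998 in the authors' deposited table. Summed over the 3 genes the level was 152.1 FPKM in the mutant and 136.8 FPKM in wild type.

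The order of the levels differed between the genotypes at 2 places. In the mutant it ran Epcam, Vim, Cdh1, Esrp1, Snai1, Twist1, Cdh2, Zeb1, Snai2 and Zeb2 from high to low. In wild type Vim stood above Epcam and Zeb1 above Cdh2, with the other places the same. The FPKM of Vim was 0.852 times that of Epcam in the mutant and 1.82 times in wild type. The ratio of Cdh1 to Cdh2 in FPKM was 35.3 in the mutant and 44.3 in wild type, so E-cadherin RNA predominated in both. Among all 23309 names, ranked from the highest FPKM, Vim held rank 1282 in the mutant and rank 691 in wild type. Zeb1 held rank 11178 in the mutant and rank 10187 in wild type. Cdh1 lay on the other side, with rank 1815 in the mutant and rank 2268 in wild type, and Epcam held rank 1099 in the mutant and rank 1187 in wild type. Without a spread over libraries, whether neighbours in these orders differ was not tested.

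**Figure D2:**
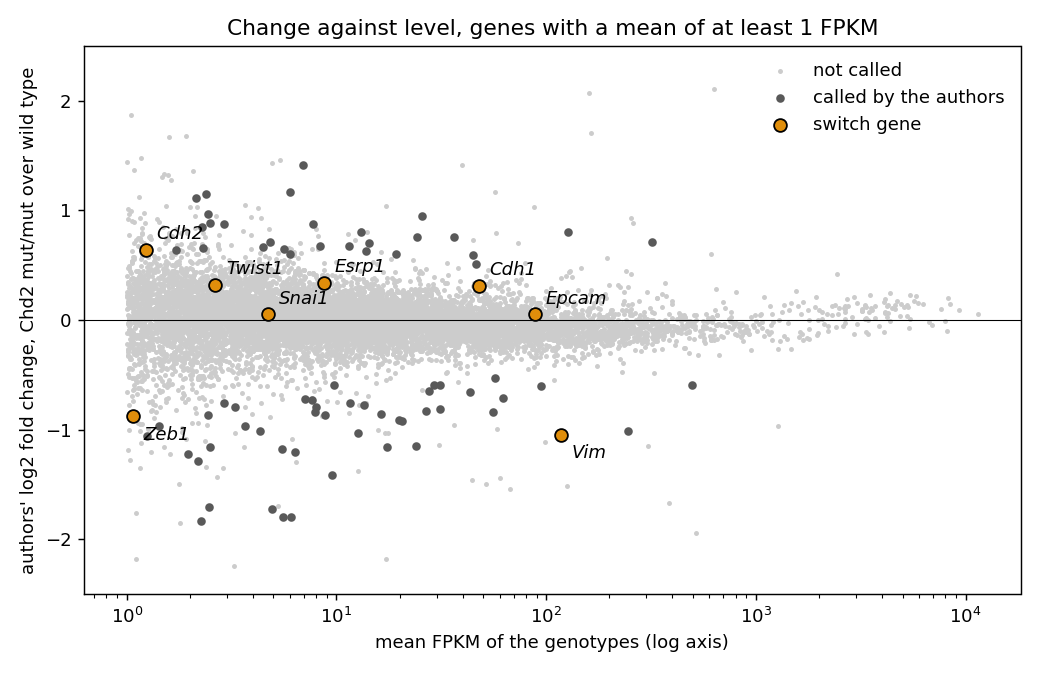
The authors' log2 fold change of Chd2 mut/mut over wild type against the mean FPKM of the genotypes on a log axis, for genes averaging 1 FPKM or more and not listed at 0 in either. Grey points are uncalled genes, dark points the authors' calls and orange points the 8 switch genes at that level, and 11 genes lie beyond the y axis; Vim at -1.05 and Zeb1 at -0.88 lie among the lower calls.

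The genes nearest to the called members by level in both genotypes were found by Euclidean distance over log2(FPKM + 1) in the 2 genotypes. Around Zeb1 these were Ksr1, Enho and Oas1g, at distances of 0.05 to 0.06, and none of them was called, with q-values from 0.373 to 0.950 in the authors' deposited table. Ksr1, a scaffold of the MAP kinase cascade, was at 0.802 FPKM in the mutant and 1.34 FPKM in wild type. Around Vim the neighbours lay farther off, at 0.45 to 0.47, and were Etfb, Spp1 and Nr0b1. Of these Spp1, which encodes osteopontin, was called, at 75.3 FPKM in the mutant and 114.1 FPKM in wild type. Etfb was at 93.3 FPKM in the mutant and 124.1 FPKM in wild type.

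A list of epithelial genes known as targets of ZEB and SNAI repression held more calls than any other. It is called the junction list here, but it also holds polarity, keratin and protein-sorting genes. Of its 26 measured genes, 21 averaged 1 FPKM or more, and 5 of these (23.8%) were called, all higher in the mutant, against 0.26% of all 10766 genes at that level. On the log2(FPKM + 1) scale 15 of the 21 lay above 0, with a median of 0.17. The list was drawn up with some of these calls known, so the count is no independent evidence of a direction.

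Cldn7, a claudin that binds EPCAM, had the largest fold among the 21 genes, at 8.28 FPKM in the mutant and 3.69 FPKM in wild type, or 2.24-fold higher. Crb3, an apical polarity gene, was at 10.03 FPKM in the mutant and 5.48 FPKM in wild type, or 1.83-fold higher. Ap1m2, which encodes the clathrin adaptor subunit that sorts proteins to the basolateral membrane of epithelial cells, was at 45.9 FPKM in the mutant and 27.2 FPKM in wild type, or 1.69-fold higher. These 3 genes had q-values of 0.0103, 0.0179 and 0.0103 in the authors' deposited table.

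Dsp, which encodes the desmosomal plaque protein desmoplakin, was at 2.08 FPKM in the mutant and 1.34 FPKM in wild type, or 1.56-fold higher. Cldn6, an early embryonic claudin, was at 53.5 FPKM in the mutant and 35.6 FPKM in wild type, or 1.505-fold higher. Both had a q-value of 0.0327 in the authors' deposited table. Of the 21 genes, 6 lay below 0 and none of these was called. Cldn4 was at 67.4 FPKM in the mutant and 54.2 FPKM in wild type, also without a call.

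Partners and proteases of EPCAM held 2 calls among 10 genes averaging 1 FPKM or more, both higher, against 0.26% of all 10766 genes. This list too was drawn up with results known, and 1 of the 2 is Cldn7, shared with the junction list. The other is St14, which encodes matriptase, a membrane serine protease of epithelia. St14 was at 14.1 FPKM in the mutant and 8.78 FPKM in wild type, or 1.60-fold higher, with a q-value of 0.0103 in the authors' deposited table. Its partner protease gene Prss8 was at 6.24 FPKM in the mutant and 4.60 FPKM in wild type and was not called. The matriptase inhibitor gene Spint2 was at 185.1 FPKM in the mutant and 162.6 FPKM in wild type, also uncalled.

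**Figure D3:**
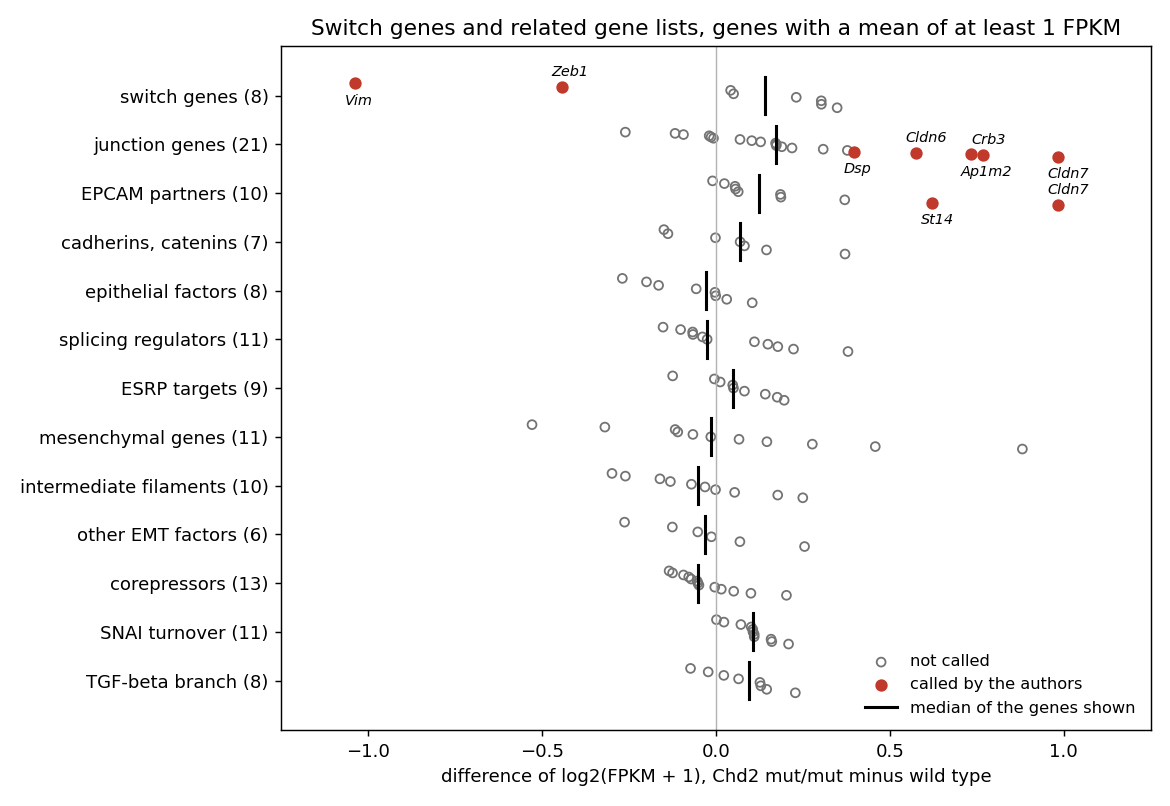
Difference of log2(FPKM + 1), Chd2 mut/mut minus wild type, for the switch genes and 12 related lists, each point 1 gene averaging 1 FPKM or more and the number of genes in brackets. Filled points are the authors' calls, bars are medians over the genes shown, and the calls lie below 0 for Vim and Zeb1 and above 0 in the junction and EPCAM lists.

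In the E-box search, the called genes of the junction list, Crb3, Ap1m2, Cldn7, Cldn6 and Dsp, all hold a match in at least 1 window. Of all single windows 20.2% hold a match, which is a share of windows and not of genes, and a gene can have several. The list was made of targets of factors that bind this motif, so matches in it were likely beforehand. Whether the matches bear on the changes was not tested. Matches were not confined to the called genes of the list. Of its 16 uncalled genes 11 have a window, and 10 of these hold a match. At least 2 matches were found in 4 of the 5 called genes and in 5 of the 11 uncalled ones. The windows of these 4 called genes are shown. Crb3 (chr17:57061951-57062250, plus strand) has 4 matches, of which 3 begin 118, 63 and 7 bases before the start and the last 25 bases after it. A second annotated Crb3 start lies within the same stretch, and its window holds the same 4. Ap1m2 (chr9:21312284-21312583, minus strand) also has 4, which begin 81, 51, 21 and 9 bases before the start. Cldn7 (chr11:69965171-69965470, plus strand) has 2, at 97 and 57 bases before the start, while the window of another annotated Cldn7 start has none. Cldn6 (chr17:23679115-23679414, plus strand) has 2, at 93 bases before and 40 bases after the start.
Crb3: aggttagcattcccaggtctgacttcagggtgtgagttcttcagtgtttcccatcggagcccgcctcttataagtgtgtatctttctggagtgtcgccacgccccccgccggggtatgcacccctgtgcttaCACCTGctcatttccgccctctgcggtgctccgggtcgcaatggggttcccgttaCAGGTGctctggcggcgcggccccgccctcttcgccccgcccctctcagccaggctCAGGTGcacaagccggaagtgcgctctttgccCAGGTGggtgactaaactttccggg
Ap1m2: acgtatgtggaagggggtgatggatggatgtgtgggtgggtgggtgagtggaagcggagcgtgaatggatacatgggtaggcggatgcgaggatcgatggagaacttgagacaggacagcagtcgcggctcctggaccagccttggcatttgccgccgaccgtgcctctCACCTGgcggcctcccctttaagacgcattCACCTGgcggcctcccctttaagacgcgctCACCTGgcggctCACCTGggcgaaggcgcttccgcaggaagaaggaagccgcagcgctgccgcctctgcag
Cldn7: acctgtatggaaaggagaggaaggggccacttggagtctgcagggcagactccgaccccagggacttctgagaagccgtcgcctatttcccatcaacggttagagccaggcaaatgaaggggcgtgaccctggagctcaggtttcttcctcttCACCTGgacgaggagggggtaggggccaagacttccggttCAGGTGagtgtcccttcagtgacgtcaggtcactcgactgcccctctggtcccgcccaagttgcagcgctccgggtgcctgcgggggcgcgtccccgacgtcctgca
Cldn6: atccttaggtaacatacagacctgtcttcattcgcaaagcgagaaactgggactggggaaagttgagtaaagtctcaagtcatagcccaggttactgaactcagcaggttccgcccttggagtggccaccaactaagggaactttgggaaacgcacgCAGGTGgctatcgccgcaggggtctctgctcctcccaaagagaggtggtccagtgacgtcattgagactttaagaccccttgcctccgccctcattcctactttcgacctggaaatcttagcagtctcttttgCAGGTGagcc
Dsp has 1 match, 3 bases after its start.

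Windows with at least 4 matches were rare enough to be named in full. Among the 10766 genes averaging 1 FPKM or more they were found for 6, of which 3 were called, all higher in the mutant, where 0.26% of the 10766 genes were called higher. As the motif was chosen with the calls known, nothing is read from this count. The 3 genes are Crb3 and Ap1m2, given above, and Tmem30b, which encodes a subunit of phospholipid flippases. Tmem30b was at 2.93 FPKM in the mutant and 1.63 FPKM in wild type, or 1.80-fold higher, with a q-value of 0.0487 in the authors' deposited table. Its window (chr12:73546346-73546645, minus strand), shown for comparison with those of Crb3 and Ap1m2, has matches 212, 169, 106 and 80 bases before the start.
Tmem30b: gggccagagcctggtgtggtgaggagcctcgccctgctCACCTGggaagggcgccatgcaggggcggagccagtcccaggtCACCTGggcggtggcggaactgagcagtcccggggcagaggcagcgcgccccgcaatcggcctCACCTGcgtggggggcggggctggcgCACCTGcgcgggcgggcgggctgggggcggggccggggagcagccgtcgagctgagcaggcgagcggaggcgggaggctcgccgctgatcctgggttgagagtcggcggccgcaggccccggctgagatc
The other 3 genes were not called. Lsr, a component of tricellular junctions, was at 17.7 FPKM in the mutant and 16.1 FPKM in wild type. Pus7, which encodes a pseudouridine synthase, was at 31.9 FPKM in the mutant and 34.1 FPKM in wild type and has 5 matches. The gene model 1810019D21Rik was at 1.76 FPKM in the mutant and 2.172 FPKM in wild type. Tmem30b, Lsr, Pus7 and 1810019D21Rik were named after their values were seen. A window was found for 79.4% of the 10766 genes, short of the 80% set for a summary over gene groups, so no such summary over all genes is given. The counts of matches in the junction list are a description, with windows for 11 of its 16 uncalled genes. No difference between its called and uncalled genes is read from them.

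**Figure D4:**
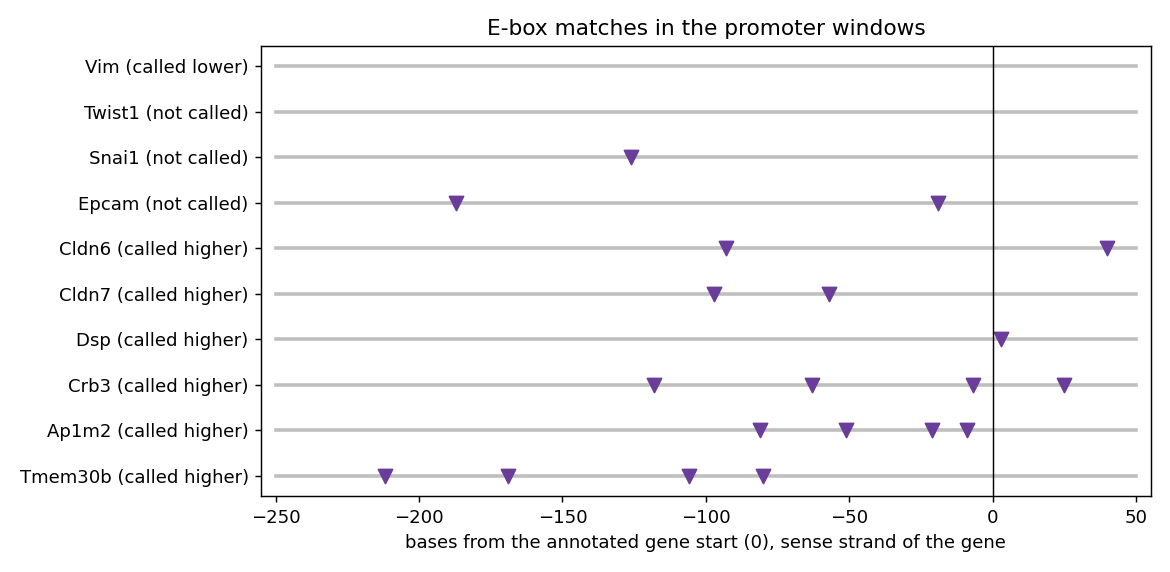
Positions of E-box matches in the promoter windows, in bases from the annotated gene start, with each triangle at the first base of a match and each line 1 window. Crb3, Ap1m2 and Tmem30b, all called higher in Chd2 mut/mut than in wild type, have 4 matches each, Epcam, Cldn6 and Cldn7 have 2, and Vim and Twist1 none. The windows shown were picked. Lsr, Pus7 and 1810019D21Rik, which have at least 4 matches and were not called, are left out, as are the uncalled genes of the junction list. No link between matches and calls is read from the figure.

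The remaining lists held no call. Among other factors of the transition, 6 of 13 reached a mean of 1 FPKM, with a median difference of -0.03. Tcf3, whose products E12 and E47 bind E-boxes, was the most abundant at 38.3 FPKM in the mutant and 36.5 FPKM in wild type. Klf8 was at 10.6 FPKM in the mutant and 8.68 FPKM in wild type. The other 7 were under 1 FPKM in both genotypes.

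All 13 corepressors that SNAI and ZEB proteins recruit averaged 1 FPKM or more, with 9 below 0 and a median of -0.05. The histone deacetylase gene Hdac1 was at 267.3 FPKM in the mutant and 282.2 FPKM in wild type, and Ctbp2, a corepressor of ZEB1, at 124.5 FPKM in the mutant and 128.8 FPKM in wild type. The 11 genes kept for turnover of SNAI proteins all lay above 0, with a median of 0.11, where 5343 of all 10766 genes lay above 0. The differences were small, the largest being 0.21 for Gsk3b. This list mixes genes for degradation of SNAI proteins with genes for their stabilisation, and it was drawn up with results known. No direction for SNAI proteins is read from it. Gsk3b, the kinase that marks SNAIL for degradation, was at 4.49 FPKM in the mutant and 3.75 FPKM in wild type.

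Epithelial transcription factors lay mostly below 0, 6 of 8 kept, with a median of -0.03. Grhl2, an activator of Cdh1 and claudin genes, was at 14.5 FPKM in the mutant and 16.3 FPKM in wild type. Elf3 was at 8.72 FPKM in the mutant and 10.7 FPKM in wild type, and Klf5 at 109.0 FPKM in the mutant and 113.4 FPKM in wild type. The microRNA genes of the ZEB and SNAI feedback loops, Mir200a, Mir200b, Mir200c, Mir141, Mir429, Mir205, Mir34a and Mir203, were all listed at 0 in both genotypes. These libraries were not made for small RNAs, so mature microRNA levels are not known from them.

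Splicing regulators had 5 of 11 genes above 0 and a median of -0.03, with a mean of 0.05, which differ in sign. Esrp2, the relative of Esrp1, was at 3.97 FPKM in the mutant and 3.26 FPKM in wild type, and the ratio of Esrp1 to Esrp2 in FPKM was 2.46 in the mutant and 2.37 in wild type. Ptbp2 was at 6.39 FPKM in the mutant and 4.68 FPKM in wild type. Of the transcripts that ESRP proteins splice, 7 of 9 lay above 0, with a median of 0.05. Values per gene say nothing of the isoforms made from them.

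Catenins and the other classical cadherins, listed with the genes Vcl and Mllt4, had 4 of 7 genes above 0. The median of 0.07 was the value of Vcl, and Mllt4 also lay above 0. P-cadherin, encoded by Cdh3, was at 10.8 FPKM in the mutant and 8.14 FPKM in wild type, with a q-value of 0.409 in the authors' deposited table. The E-cadherin partner genes Ctnnb1 and Ctnna1 lay the other way, with Ctnnb1 at 217.5 FPKM in the mutant and 239.4 FPKM in wild type and Ctnna1 at 201.6 FPKM in the mutant and 223.7 FPKM in wild type.

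None of the other mesenchymal genes was called. Of 23, 11 reached a mean of 1 FPKM, with 5 above and 6 below 0, a median of -0.01 and a mean of 0.06, which differ in sign. Fn1, which encodes fibronectin, was at 44.1 FPKM in the mutant and 31.8 FPKM in wild type, with a q-value of 0.0570 in the authors' deposited table. Tagln, a smooth muscle actin-binding protein gene, was at 2.97 FPKM in the mutant and 1.15 FPKM in wild type, and S100a4, a calcium-binding protein gene, at 0.767 FPKM in the mutant and 1.55 FPKM in wild type. Sparc, which encodes a secreted matrix protein, was at 106.1 FPKM in the mutant and 114.5 FPKM in wild type.

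Intermediate filament genes other than Vim and the keratins, listed with the lamins and the filament linker gene Plec, had 3 of 10 above 0 and a median of -0.05. Des, which encodes desmin, was at 4.08 FPKM in the mutant and 5.24 FPKM in wild type. Prph and Nefl lay the other way, with Prph at 3.03 FPKM in the mutant and 2.39 FPKM in wild type. Nefl was at 38.3 FPKM in the mutant and 33.8 FPKM in wild type. The lamin gene Lmnb1 was level, at 239.3 FPKM in the mutant and 239.5 FPKM in wild type. The lamin gene Lmna was at 66.2 FPKM in the mutant and 79.5 FPKM in wild type. A different set of 10 cytoplasmic filament genes adds Vim and leaves out the lamins and Plec. Of its summed FPKM, Vim made up 41.6% in the mutant and 59.9% in wild type. The TGF-beta branch, which induces the transition in many epithelia, had 6 of 8 genes above 0 and a median of 0.10. Of these 6, Smad7, Ski and Skil encode inhibitors of the pathway, with Ski at 16.3 FPKM in the mutant and 13.7 FPKM in wild type. The receptor gene Tgfbr1 lay below 0, at 4.14 FPKM in the mutant and 4.404 FPKM in wild type. The ligand gene Tgfb1 was at 10.6 FPKM in the mutant and 9.64 FPKM in wild type.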

How the data were processed

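The authors sequenced total RNA of 2 Chd2 mut/mut and 2 wild-type libraries, made with the NEBNext Ultra RNA kit per the labels' protocols. The submitters' processing notes name mm9 and the tools TopHat2 2.1.0, bcl2fastq 2.17.1.14 and Cufflinks, without their roles. The sources used here give no version of Cufflinks, no annotation and no test. The deposited table gives 1 FPKM value per gene and genotype, a q-value, a call and the log2 ratio of the mutant to the wild-type value. Values reach down to 4.49e-07 FPKM, so they are not whole-read steps, and depth is unknown.

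Differences are log2(FPKM + 1), mutant minus wild type, which understates changes of low genes. Lists were summarised over genes averaging 1 FPKM or more. No test of single genes was possible with 1 value per genotype, so significance is that of the authors' q-value. The members, lists, motif and naming rule were chosen with earlier results of these data known. The rule names the members, the called genes of each list, up to 4 genes of each list by size of difference and 2 by level. It also names the 3 nearest neighbours of each called member. Outside the rule, the text names the marker and microRNA genes listed at 0, Tbx3 as the lowest pluripotency marker, Tgfbr1, and genes marked as picked with their values known. Scripts ran in Python 3.11.15 with pandas 2.3.3 and were tested on simulated data.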

Additional observations from a re-analysis of the deposited data

How the results depend on the processing

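The authors' calls of Vim and Zeb1 held at a q of at most 0.02 and with averages of 1 FPKM or more. When an average of 5 FPKM was required, Zeb1 was removed by the filter and 1 call remained, while 50 of the 81 calls over all genes remained. The median difference of the 10 members, 0.07 in the settings used above, was 0.29 with a pseudocount of 0.1, 0.037 with a pseudocount of 5 and 0.10 after quantile normalization. It was 0.14 over members averaging 1 FPKM or more and 0.18 at 5 FPKM. Of 50 values for single members under other pseudocounts and scalings, all 50 kept their direction and 12 moved by over 1.5 times. A pseudocount cannot turn a direction round, and the count includes Zeb2 and Snai2, whose values are too low to give a direction. The count is therefore no evidence for any direction. No scaling shifted the median of all genes by more than 0.01. No paired analysis was possible because the table has no values per lot, and for the same reason no library could be left out. How far the FPKM of Vim, Zeb1 or any other gene varies between libraries of 1 genotype is therefore not known beyond the authors' q-values.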

Other observations

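A few other called genes were chosen after their values were seen, so no direction or theme is read from them. Lima1, which encodes an actin-binding protein that links the cadherin-catenin complex to actin, was at 16.9 FPKM in the mutant and 10.9 FPKM in wild type, or 1.55-fold higher. Stx3, which encodes an apical syntaxin, was at 17.6 FPKM in the mutant and 10.8 FPKM in wild type, or 1.63-fold higher. Cd24a, a membrane glycoprotein gene of epithelial and progenitor cells, was at 23.1 FPKM in the mutant and 15.2 FPKM in wild type, or 1.52-fold higher. The actin bundling gene Pls3 was at 7.21 FPKM in the mutant and 4.76 FPKM in wild type. Dysf, which encodes the membrane repair protein dysferlin, was lower, at 0.812 FPKM in the mutant and 1.69 FPKM in wild type. The q-values of these genes in the authors' deposited table were 0.0103, or 0.0487 for Pls3.

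Of the 23 genes with a symbol of Cdh and a number, 5 averaged 1 FPKM or more and none was called. Cdh1 made up 75.6% of their summed FPKM in the mutant and 76.0% in wild type.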
